A study of Mus musculus with 8 samples.

Results

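The 8 genes described here encode the core of Notch signalling in the intestinal crypt, namely the receptors Notch1 and Notch2, the ligands Dll1, Dll4 and Jag1, the DNA-binding effector Rbpj, and the Hes family members Hes1 and Hes6. They were chosen by name. The data held start or end values under 13706 gene identifiers, among them those of 7 of the 8 genes, and the remaining gene, Notch2, was found by its exon boundaries. The values come from RNA sequencing of small-intestinal crypt organoids, epithelial cultures that grow in Matrigel from isolated crypts in IntestiCult medium. The comparison was between 4 samples from wild type littermates (WT) and 4 samples from MG53-TG mice, which overexpress MG53 globally. MG53 is a tripartite-motif protein encoded by Trim72. The promoter of the transgene, the age of the mice and whether each sample came from its own mouse were not given in the sources used here, so the p-values measure only the spread between these samples. In one place the text of the study describes organoids from mice that also carry an Lgr5 reporter knock-in allele, whereas the labels name only WT and MG53-TG.

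Notch signalling works between touching cells. A ligand on one cell binds a receptor on its neighbour, the receptor is cut first by an ADAM protease and then by gamma-secretase, and the freed intracellular domain joins RBPJ on DNA and switches on genes such as Hes1. In the crypt, cells that receive the signal stay stem-like or become absorptive enterocytes, whereas cells that escape it raise Dll1 and Dll4, express Atoh1 and become secretory. Dll1 and Dll4 act together there, with Notch1 and Notch2 as the receptors in use.

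The level of a gene was its FPKM, a fragment count scaled to transcript length and to library size, summed over the transcription start events named for it in the deposited tables, or over its transcription end events where their mean was higher. The depth of the samples is unknown. Differences were tested on log2(FPKM + 1) with limma across 10739 genes, and a gene was called when its Benjamini-Hochberg adjusted p was at most 0.05. A fold change on this scale understates the change of low genes. Trim72 had no entry in any of the 4 WT samples, which the fit took as 0, and MG53-TG samples 1 to 4 had 16.4, 27.4, 31.9 and 36.5 FPKM. MG53-TG samples 3 and 4 lay apart from samples 1 and 2. On the first principal component, which held 72.1% of the variance, they were at 53.1 and 60.0 against 26.1 and 23.7, with the WT samples between -41.9 and -39.4, and so the 8 genes are also given without each pair. The stem cell, proliferation and enterocyte markers also moved with the groups. For comparison, 29.2% of all genes were called lower and 15.9% higher. Of 10 stem cell markers 9 were called lower, with a summed level of 472 to 635 FPKM in WT and 51.2 to 248 FPKM in MG53-TG, and of 8 proliferation markers 7 were lower, with 491 to 527 FPKM against 133 to 365 FPKM. All 10 enterocyte markers were higher, with 962 to 1134 FPKM against 11486 to 12540 FPKM. In bulk RNA, fewer cells of a type and less RNA per cell cannot be told apart, and the part of these shifts in the results on Notch genes was not tested.

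Between the groups, 6 of the 8 genes passed the test. Notch1, Notch2, Dll4, Rbpj and Hes6 fell in MG53-TG organoids, Dll1 rose, and Jag1 and Hes1 did not pass. The test called 45.1% of all genes, 15.9% as higher and 29.2% as lower. The median difference of the 8 genes was -0.54 beside -0.17 for all genes. In the same 6 genes the groups did not overlap, which held for 45.0% of all genes. Without MG53-TG samples 3 and 4 the test called 4 of the 8 (Notch1, Dll1, Dll4 and Hes6), and without samples 1 and 2 it called 7, with Hes1 added. Over all genes these fits called 3842 of 10647 and 5820 of 10625, against 4843 of 10739 with all samples. The pairs were chosen after seeing the spread of these same samples, so the changed counts are no result about the 8 genes.

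**Figure D1:**
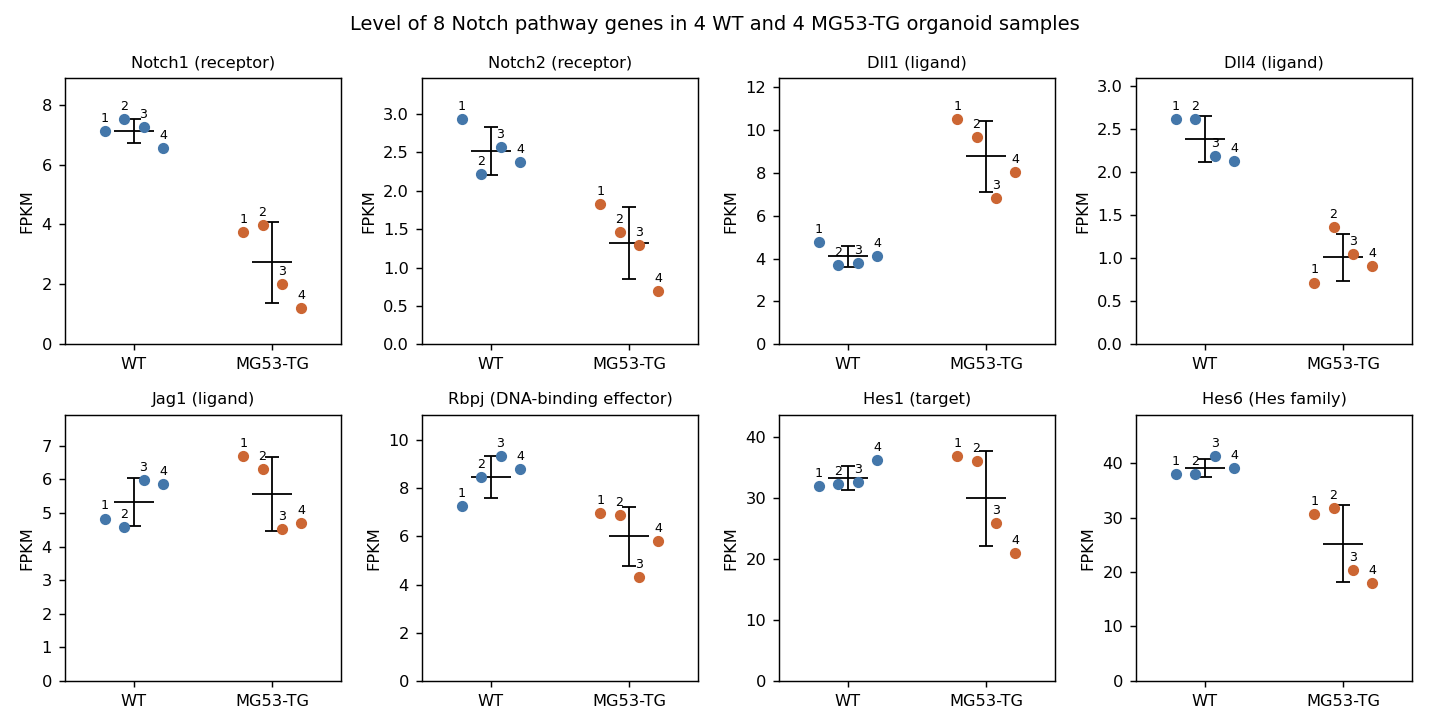
FPKM of the 8 genes (y axis, linear from 0) in 4 WT samples (blue) and 4 MG53-TG samples (orange), with sample numbers above the points and black bars for the mean ± SD. Dll1 sits higher in all MG53-TG samples, Notch1, Notch2, Dll4, Rbpj and Hes6 sit lower, and Hes1 and Jag1 overlap, with MG53-TG samples 3 and 4 below samples 1 and 2 in most panels.

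Notch1 (chr2:26457903-26516663, minus strand, GRCm38), a receptor that stem cells and progenitors rely on, had the largest fitted fall of the 8 with the events used here. Its levels in WT samples 1 to 4 were 7.11, 7.53, 7.24 and 6.57 FPKM, and in MG53-TG samples 1 to 4 they were 3.76, 4.00, 2.0 and 1.21 FPKM. All MG53-TG samples were below all WT samples, and the mean went from 7.11 ± 0.40 to 2.74 ± 1.36 FPKM (SD, n = 4), a 2.59-fold lower level. The difference on the log2(FPKM + 1) scale was -1.19 (SE 0.26, limma adjusted p = 0.00655), and a two-sided exact permutation test of this gene gave p = 0.0286, the smallest that 4 against 4 samples allow. It was -0.73 without MG53-TG samples 3 and 4 and -1.65 without samples 1 and 2, and the call held both ways.

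Most of the Notch1 signal came from its main start. This was the first exon of the coding transcript Notch1-201 on the minus strand (chr2:26503498-26503822, GRCm38), which held all of the start FPKM in WT sample 1 and MG53-TG samples 1, 2 and 4. A further start inside the gene (chr2:26482112-26482191), which matched no exon boundary of the GENCODE annotation, held 21.0%, 21.2% and 11.7% in WT samples 2 to 4 and 20.1% in MG53-TG sample 3. With this start left out, as when genes were assigned by exon boundary, the difference was -1.06 (limma adjusted p = 0.0141). At its 3′ end the gene shares 1068 exonic bases with 0610009E02Rik on the opposite strand, and whether the libraries kept strand was not given in the sources used here, although no end event of Notch1 entered its value.

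Notch2, the second receptor of the crypt, had no rows under its own identifier. The rows at its locus (chr3:98013527-98150361, plus strand) were named for Gm42820, a short gene model of unknown type within Notch2, but their boundaries were those of the first and last exons of Notch2-201. Placed by exon boundary, its end event was at 2.94, 2.22, 2.57 and 2.37 FPKM in WT samples 1 to 4, and MG53-TG samples 1 to 4 had 1.82, 1.46, 1.29 and 0.693 FPKM. The groups did not overlap, and the mean was 1.92-fold lower in MG53-TG. In a fit over 10915 genes placed in this way the difference was -0.63 (SE 0.17, limma adjusted p = 0.0160; exact permutation p = 0.0286). That fit called 44.0% of its genes, 15.5% as higher and 28.5% as lower, and the groups did not overlap in 44.6% (15.8% higher, 28.8% lower).

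The start event of Notch2 gave a larger difference than its end event. In WT samples the start stood at 100.1% to 100.5% of the end, while in MG53-TG samples 1 to 4 it stood at 45.4%, 61.4%, 37.7% and 13.3% of the end. With starts alone the difference was -1.19 (limma adjusted p = 0.00152), about that of Notch1, whose value also came from starts. Without MG53-TG samples 3 and 4 the difference of Notch2 was -0.42 on the end event and no longer passed (limma adjusted p = 0.0507). Without MG53-TG samples 1 and 2 it was -0.84 on the end event and passed (limma adjusted p = 0.0057). Both receptors are single-pass proteins of the same family, and Notch1 was the higher of them in each sample, at 2.42 to 3.40 times Notch2 in WT and 1.55 to 2.74 times in MG53-TG.

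Dll1 (chr17:15367354-15376872, minus strand) was the only one of the 8 genes to rise. This ligand marks cells that have left the Notch-receiving state and are entering the secretory lineages. Its levels were 4.79, 3.69, 3.81 and 4.11 FPKM in WT samples 1 to 4 and 10.5, 9.68, 6.84 and 8.02 FPKM in MG53-TG samples 1 to 4. The lowest MG53-TG sample was above the highest WT sample, and the mean rose 2.14-fold, from 4.10 ± 0.50 to 8.76 ± 1.65 FPKM (SD, n = 4). The difference was 0.93 (SE 0.14, limma adjusted p = 0.00149; exact permutation p = 0.0286), 1.13 without MG53-TG samples 3 and 4 and 0.73 without samples 1 and 2.

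Most of the Dll1 value came from its usual start, and as only start events entered it, the rise could appear only at starts. The first exon of Dll1-201 (chr17:15375187-15375976, minus strand) was at 3.87, 3.20, 2.51 and 3.05 FPKM in WT samples 1 to 4, and MG53-TG samples 1 to 4 had 8.44, 7.37, 5.90 and 5.50 FPKM. Among the 3 starts listed in all samples its share was 85.2% ± 8.01 in WT and 81.1% ± 7.10 in MG53-TG (SD, n = 4), which did not pass the test (limma adjusted p = 0.796). That test, run on the leading start of 1958 genes, called 0.511% of them, and its counterpart for transcription ends, in which none of the 8 genes could be entered, called 0.466% of 429 genes. On the opposite strand, exons of the noncoding A930024N18Rik share 867 bases with those of Dll1, parts of this first exon included. Reads of the pair cannot be told apart without strand, and the noncoding gene had no entry of its own. End events of Dll1 were listed in only 3 samples and did not enter its value.

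The sequence upstream of the usual Dll1 start is given as a description, beside that of Notch1, which changed in the opposite direction, and that of Rbpj. They are the parts of the RefSeq promoter windows (GRCm38.p6) that lie upstream of the first exon, printed 5′ to 3′ on the strand of the gene. Capitals mark TGGGAA, the core bound by RBPJ, or its reverse complement TTCCCA. The stretch of Dll1 lies upstream of Dll1-201, within an intron of the longer Dll1-205, and an exon of A930024N18Rik runs through it on the opposite strand.
Dll1 (chr17:15375977-15376073): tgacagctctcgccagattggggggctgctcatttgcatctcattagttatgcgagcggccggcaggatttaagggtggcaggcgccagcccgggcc
Notch1 (chr2:26503825-26504072): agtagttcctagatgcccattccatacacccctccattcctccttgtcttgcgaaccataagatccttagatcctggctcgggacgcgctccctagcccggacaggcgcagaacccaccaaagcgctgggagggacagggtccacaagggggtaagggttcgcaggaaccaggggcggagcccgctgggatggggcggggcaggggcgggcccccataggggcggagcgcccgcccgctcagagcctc
Rbpj (chr5:53590096-53590213): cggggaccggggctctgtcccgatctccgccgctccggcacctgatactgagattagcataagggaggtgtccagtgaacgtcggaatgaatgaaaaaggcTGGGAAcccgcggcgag

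Windows of 250 bases before to 50 after the RefSeq start were given for 7 of the 8 genes, all but Hes1, 10 windows in all. The core was found in both Rbpj windows and in none of the other 8 windows, on either strand. The Rbpj windows overlap and held 2 and 1 sites, and the site of the second also lies in the first. Among all 32851 windows of this length, 25.6% held it. Its absence says only that these letters are not in these windows.

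Dll4 (chr2:119325784-119335962, plus strand), the second Delta ligand of the crypt, went the other way from Dll1. It was at 2.62, 2.62, 2.19 and 2.13 FPKM in WT samples 1 to 4, and MG53-TG samples 1 to 4 had 0.717, 1.36, 1.05 and 0.914 FPKM. All MG53-TG samples were lower, and the mean fell from 2.39 ± 0.27 to 1.01 ± 0.27 FPKM (SD, n = 4), 2.37-fold. The difference was -0.76 (SE 0.12, limma adjusted p = 0.00169; exact permutation p = 0.0286), -0.75 without MG53-TG samples 3 and 4 and -0.77 without samples 1 and 2. Of the 8 genes, Dll4 had the difference that moved least with the pair left out. Dll4 is also made by endothelial cells, and of 7 endothelial markers 6 (Pecam1, Cdh5, Kdr, Tie1, Tek and Emcn) had no entry in any sample, while Vwf was at most 0.569 FPKM. Its first exon shares 214 bases with Gm14207 on the opposite strand, which was at 0.538 to 2.25 FPKM in WT and 0.225 to 1.33 FPKM in MG53-TG.

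Jag1 (chr2:137081456-137116644, minus strand), a ligand of the Serrate type, did not pass the test. It was at 4.84, 4.58, 5.99 and 5.87 FPKM in WT samples 1 to 4, and MG53-TG samples 1 to 4 had 6.71, 6.32, 4.52 and 4.71 FPKM. MG53-TG samples 1 and 2 were above all WT samples, and samples 3 and 4 lay at their lower edge. The difference was 0.05 (SE 0.15, limma adjusted p = 0.818; exact permutation p = 0.657), 0.26 without samples 3 and 4 and -0.16 without samples 1 and 2, none of which passed.

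Within Jag1 these same pairs also differed in splicing. A 215-base intron between exons 23 and 24 of Jag1-201, inside the coding region (chr2:137084707-137084921, minus strand), can be kept in the transcript, as in the annotated Jag1-202. Its length is not a multiple of 3. The share of FPKM with the intron kept was 2.04%, 3.03%, 1.77% and 1.96% in WT samples 1 to 4 and 1.95%, 2.17%, 20.4% and 17.0% in MG53-TG samples 1 to 4. MG53-TG samples 1 and 2 were within the WT range, and samples 3 and 4 were above it, so this is a difference within the MG53-TG group, for which no test was run. The intron is printed 5′ to 3′ from the GENCODE transcript that keeps it, with the bases at its splice sites in capitals.
Jag1 intron: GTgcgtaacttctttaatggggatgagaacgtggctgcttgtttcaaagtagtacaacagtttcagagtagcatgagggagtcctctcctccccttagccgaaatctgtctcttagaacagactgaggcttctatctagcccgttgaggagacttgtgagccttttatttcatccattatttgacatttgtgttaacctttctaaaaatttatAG

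Dll1 made up more of the summed ligand level in MG53-TG, and Dll4 less. The summed level of Dll1, Dll4 and Jag1 was 10.9 to 12.2 FPKM in WT and 12.4 to 17.9 FPKM in MG53-TG. Dll1 made up 34.7% ± 3.13 of that sum in WT and 57.1% ± 1.89 in MG53-TG (SD, n = 4), and Dll4 made up 20.3% ± 2.99 and 6.74% ± 1.96. The ratio of Dll1 to Dll4 was 1.83, 1.41, 1.74 and 1.93 in WT samples 1 to 4 and 14.7, 7.12, 6.54 and 8.78 in MG53-TG samples 1 to 4. All 4 MG53-TG ratios were above the WT ratios. FPKM is per length, so levels of different genes can be set side by side. Dll1 was taken from start events and Dll4 and Jag1 from end events, and these ratios are given as a description.

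**Figure D2:**
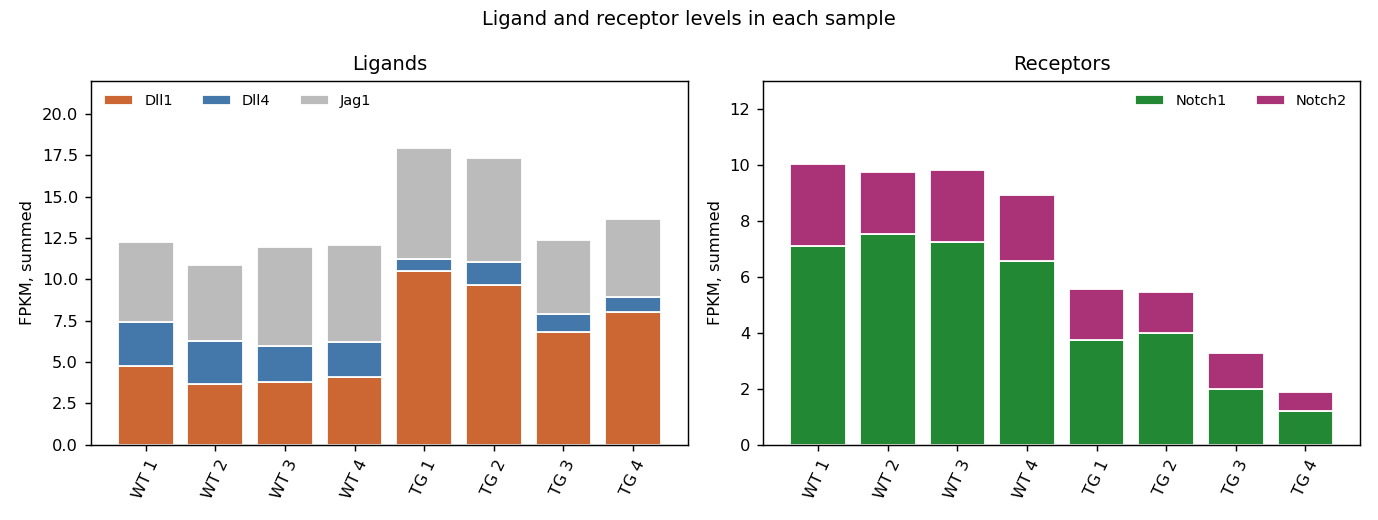
Stacked FPKM of the ligands Dll1, Dll4 and Jag1 (left) and of the receptors Notch1 and Notch2 (right) in each WT and MG53-TG (TG) sample, linear axes from 0. The Dll1 segment takes 55.1% to 58.8% of the ligand sum in MG53-TG against 31.8% to 39.1% in WT, while both receptor segments shrink in all MG53-TG samples.

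Rbpj (chr5:53466152-53657362, plus strand), the factor through which all Notch receptors act on DNA, passed the test narrowly. It was at 7.27, 8.48, 9.36 and 8.79 FPKM in WT samples 1 to 4, and MG53-TG samples 1 to 4 had 6.96, 6.91, 4.33 and 5.82 FPKM. The groups did not overlap, but MG53-TG samples 1 and 2 lay close to WT sample 1. The difference was -0.45 (SE 0.15, limma adjusted p = 0.0405; exact permutation p = 0.0286). It was -0.28 when scaled by median of ratios (limma adjusted p = 0.118) and -0.25 without MG53-TG samples 3 and 4 (limma adjusted p = 0.143), where the call was lost. Without MG53-TG samples 1 and 2 it was -0.65 and passed (limma adjusted p = 0.0103). The call also rested on single samples, since it was lost without WT sample 2, 3 or 4 or MG53-TG sample 3 or 4, with limma adjusted p-values of up to 0.0962.

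The start of Rbpj to which the FPKM was assigned varied from sample to sample and not by group. The start of Rbpj-202 held 99.8% and 98.8% in WT samples 1 and 4 and 99.2% in MG53-TG sample 3. The start of Rbpj-203 held 90.6% in WT sample 3 and 95.4% and 89.9% in MG53-TG samples 1 and 2. Rbpj-207 led in WT sample 2 with 87.5%, and Rbpj-201 led in MG53-TG sample 4 with 73.9%. Rbpj did not enter the test of start shares. Its end event gave -0.47 (limma adjusted p = 0.0316).

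Hes1 (chr16:30064384-30067796, plus strand), the classical target of Notch and a repressor of Atoh1, did not pass. It was at 31.9, 32.3, 32.5 and 36.3 FPKM in WT samples 1 to 4, and MG53-TG samples 1 to 4 had 36.9, 36.0, 26.0 and 20.9 FPKM. MG53-TG samples 1 and 2 were near the highest WT sample, and samples 3 and 4 were below every WT sample. The difference was -0.18 (SE 0.18, limma adjusted p = 0.436; exact permutation p = 0.429). It was 0.13 without MG53-TG samples 3 and 4 (limma adjusted p = 0.245) and -0.49 without samples 1 and 2, where it passed (limma adjusted p = 0.00959). Scaled by median of ratios it was 0.01. Relative to Notch1, Hes1 stood at 4.29 to 5.52 times in WT and 9.01 to 17.3 times in MG53-TG. More than 99% of its start FPKM came from the first exon of Hes1-201 in every sample (99.1% to 99.3%).

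Within the MG53-TG group the split in Hes1 ran beside that in proliferation and stem cell markers. The summed proliferation markers were at 360 and 365 FPKM in MG53-TG samples 1 and 2 and at 187 and 133 FPKM in samples 3 and 4. For the stem cell markers the sums were 234 and 248 FPKM against 77.0 and 51.2 FPKM. The enterocyte markers were alike in both pairs, at 11818 and 11486 FPKM against 12493 and 12540 FPKM. Lgr5, the marker of crypt base stem cells, was at 40.5 to 54.0 FPKM in WT, and MG53-TG samples 1 to 4 had 18.6, 20.5, 7.90 and 9.25 FPKM (difference -1.70, limma adjusted p = 0.00242), although with genes assigned by exon boundary it was -0.45 and did not pass (limma adjusted p = 0.539). The part of these markers in the level of Hes1 was not tested.

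Hes6 (chr1:91411483-91414038, minus strand), a relative of Hes1 that counteracts it and is linked to differentiating secretory and endocrine cells, was the most abundant of the 8 genes in WT. It was at 37.9, 38.0, 41.4 and 39.1 FPKM in WT samples 1 to 4, and MG53-TG samples 1 to 4 had 30.7, 31.8, 20.4 and 17.9 FPKM. All MG53-TG samples were lower, and the mean fell 1.55-fold, from 39.1 ± 1.62 to 25.2 ± 7.06 FPKM (SD, n = 4). The difference was -0.65 (SE 0.18, limma adjusted p = 0.0206; exact permutation p = 0.0286), -0.31 without MG53-TG samples 3 and 4 and -0.99 without samples 1 and 2, and it passed both ways. It no longer passed without WT sample 3 or without MG53-TG sample 3, with limma adjusted p-values of up to 0.0548.

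A share of Hes6 transcripts kept its first intron. This 77-base intron (chr1:91412980-91413056, minus strand) lies inside the coding region of Hes6-201, is not a multiple of 3 long, and is kept in the annotated Hes6-203. The spliced form took 91.8%, 62.0%, 42.8% and 95.1% in WT samples 1 to 4 and 43.8%, 95.1%, 56.7% and 91.6% in MG53-TG samples 1 to 4. Each group held samples near both ends of this range, with means of 72.9% ± 25.0 and 71.8% ± 25.5 (SD, n = 4), and the difference did not pass (limma adjusted p = 0.996). The intron is shown 5′ to 3′ from GENCODE, with the splice site bases in capitals.
Hes6 intron: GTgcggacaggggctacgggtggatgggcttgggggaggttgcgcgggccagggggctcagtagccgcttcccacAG

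**Figure D3:**
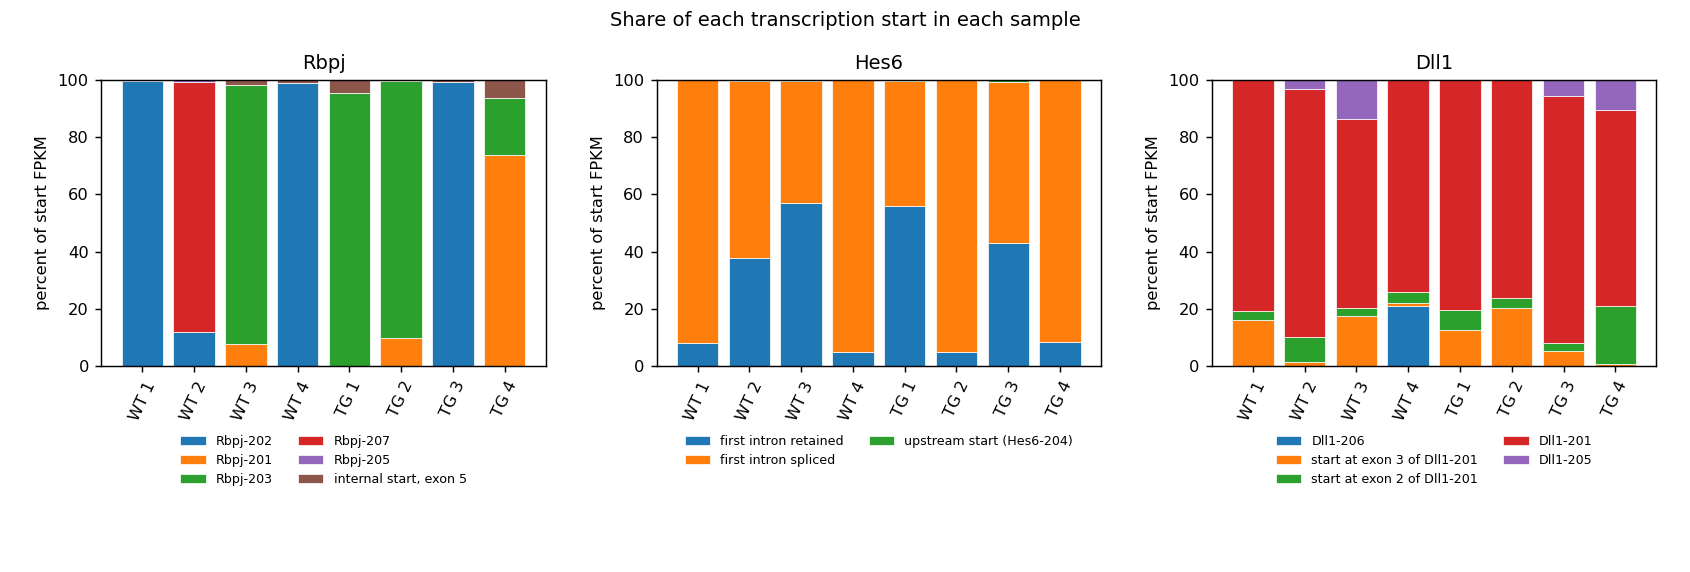
Percent of the start FPKM (y axis, 0 to 100) assigned to each transcription start of Rbpj, Hes6 and Dll1 in each WT and MG53-TG (TG) sample, with starts named by the transcript they begin. The leading start of Rbpj and the spliced share of Hes6 (42.7% to 95.1%) change from sample to sample within each group, while Dll1 keeps 1 leading start.

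The order of the levels changed as well. In WT it ran from Hes6 and Hes1 at 39.1 and 33.2 FPKM through Rbpj, Notch1, Jag1 and Dll1 to Notch2 and Dll4 at 2.52 and 2.39 FPKM. The neighbours Rbpj and Notch1, Jag1 and Dll1, and Notch2 and Dll4 overlapped in range there. In MG53-TG, Dll1 moved from the sixth to the third place and Notch1 from the fourth to the sixth. The ranges of Hes1 and Hes6 overlapped, as did those of Dll1 and Rbpj, Rbpj and Jag1, Notch1 and Notch2, and Notch2 and Dll4. These orders are by FPKM, which is per length, and they set start events of some genes against end events of others, such as Notch2.

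Among all 10286 genes with a complete set of values, those most like Dll1 across the 8 samples were Pcgf2, Mylk3 and Dcaf6, with Pearson r of log2(FPKM + 1) of 0.993, 0.991 and 0.986. For Hes1 they were Phf21b, Nmral1 and Nav1, with 0.987, 0.983 and 0.981. The first set follows the difference between the groups, from 4.34 to 5.52 FPKM of Pcgf2 in WT to 7.45 to 10.0 FPKM in MG53-TG. The second follows the split within MG53-TG, where Nav1 was at 4.97 and 5.34 FPKM in samples 1 and 2 and at 1.01 and 0.494 FPKM in samples 3 and 4. These coefficients are a description over samples that share 1 difference between groups, and the genes were picked for them.

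Of 55 further genes of the pathway, 50 had an entry and 40 passed the filter of a mean of at least 0.5 FPKM. The test called 18 of these 40, 5 higher and 13 lower, or 45.0% against the background of 45.1%. Their median difference was -0.21 beside -0.17 for all genes. That share is near the background and is no result about the list, so the genes are described one by one by their step. The count fell to 10 or 11 without WT sample 1, WT sample 2 or MG53-TG sample 3, and was 12 without MG53-TG samples 3 and 4 and 19 without samples 1 and 2.

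At the receptor step, Notch3 was low and lay lower in MG53-TG. It was at 0.896, 1.10, 1.41 and 0.895 FPKM in WT samples 1 to 4, and MG53-TG samples 1 to 4 had 0.605, 0.828, 0.0602 and 0.0455 FPKM (difference -0.62, limma adjusted p = 0.0359). The call held in only 2 of 8 fits that left out 1 sample, those without MG53-TG sample 1 or 2, and it was lost without MG53-TG samples 3 and 4 (limma adjusted p = 0.193) and with start events alone (-0.33, limma adjusted p = 0.110). Jag2, the further Serrate-type ligand, did not pass (difference 0.22, SE 0.40). Notch4, Dll3 and Dlk1 lay under the filter.

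Of the 40 genes, the largest fitted falls were those of an enzyme that glycosylates the receptors and an enzyme that cuts them. Lfng, the Fringe glycosyltransferase that tunes Notch towards Delta ligands, was at 6.70, 7.20, 7.01 and 7.27 FPKM in WT samples 1 to 4, and MG53-TG samples 1 to 4 had 2.46, 2.41, 1.61 and 0.516 FPKM, a 4.03-fold lower mean (difference -1.62, SE 0.25, limma adjusted p = 0.00144). Poglut1, which adds O-glucose to the receptor, fell by 0.65 (by 0.36 without MG53-TG samples 3 and 4), and Rfng, a further Fringe, rose by 0.35, a call held in only 1 of 8 fits that left out 1 sample, the fit without MG53-TG sample 4, and lost without MG53-TG samples 1 and 2 (limma adjusted p = 0.160). Adam10, the protease of the first cut, went from 41.1 ± 8.51 to 18.8 ± 4.55 FPKM (SD, n = 4; difference -1.09, SE 0.20, limma adjusted p = 0.00300). With end events alone the difference of Adam10 was -2.0 (limma adjusted p = 0.000107). Its relative Adam17 went from 10.7 ± 0.80 to 5.97 ± 1.17 FPKM (difference -0.76, SE 0.13, limma adjusted p = 0.00271).

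The gamma-secretase complex of the second cut did not move as a unit. Psen2 rose by 0.45 (limma adjusted p = 0.0122) and Aph1a fell by 0.28 (limma adjusted p = 0.0363), a call held in only 1 of 8 fits that left out 1 sample (without MG53-TG sample 1) and lost with median-of-ratios scaling (-0.09) and without MG53-TG samples 3 and 4 (-0.20), while Ncstn, Psenen and Aph1b did not pass.

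Among genes of ubiquitination and trafficking, Numb, which antagonises the receptor, was higher. It was at 13.6, 9.16, 9.56 and 9.80 FPKM in WT samples 1 to 4, and MG53-TG samples 1 to 4 had 20.4, 18.9, 18.9 and 17.1 FPKM (difference 0.80, SE 0.13, limma adjusted p = 0.00191). The groups were well apart, yet with start events alone the difference was 0.67 and did not pass (limma adjusted p = 0.418). Mib2, a ligase that activates ligands, rose by 0.72, though the call was lost without WT sample 1 or 2 or MG53-TG sample 1 or 3, and without either pair of MG53-TG samples (limma adjusted p = 0.0740 and 0.10). With start events alone Mib2 was at 0.24 and did not pass (limma adjusted p = 0.206). The Deltex genes Dtx4 and Dtx2 fell by 0.74 and 0.42, the latter in only 3 of 8 fits that left out 1 sample (without WT sample 2 or MG53-TG sample 1 or 2) and not without MG53-TG samples 3 and 4 (limma adjusted p = 0.149), and Fbxw7, the ligase that destroys the active intracellular domain, fell by 0.52 but did not pass without MG53-TG samples 3 and 4 (limma adjusted p = 0.0819). Mib1, a further ligase for ligands, did not pass.

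In the nucleus, 4 of 15 tested cofactors were called lower and none higher, a share of 26.7% that is near the 29.2% of all genes called lower. Tle3, of the Groucho corepressors, fell by 0.76 but held its call in only 2 of 8 fits that left out 1 sample (without MG53-TG sample 1 or 4) and lost it without MG53-TG samples 3 and 4 (-0.40, limma adjusted p = 0.0660), and the corepressors Ctbp1 and Tle1 passed with overlapping groups. The coactivators Maml1, Maml3, Ep300 and Crebbp did not pass. Of 7 further targets only Hes2 could be tested. It was at 0.0621 FPKM in WT sample 1 and had no start entry in WT samples 2 to 4, which the fit took as 0, and MG53-TG samples 1 to 4 had 1.65, 0.682, 3.14 and 2.97 FPKM (difference 1.53, SE 0.27, limma adjusted p = 0.00266). Hes5, Hes7 and Hey1 lay under the filter, and Hey2, Heyl and Nrarp had no entry.

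**Figure D4:**
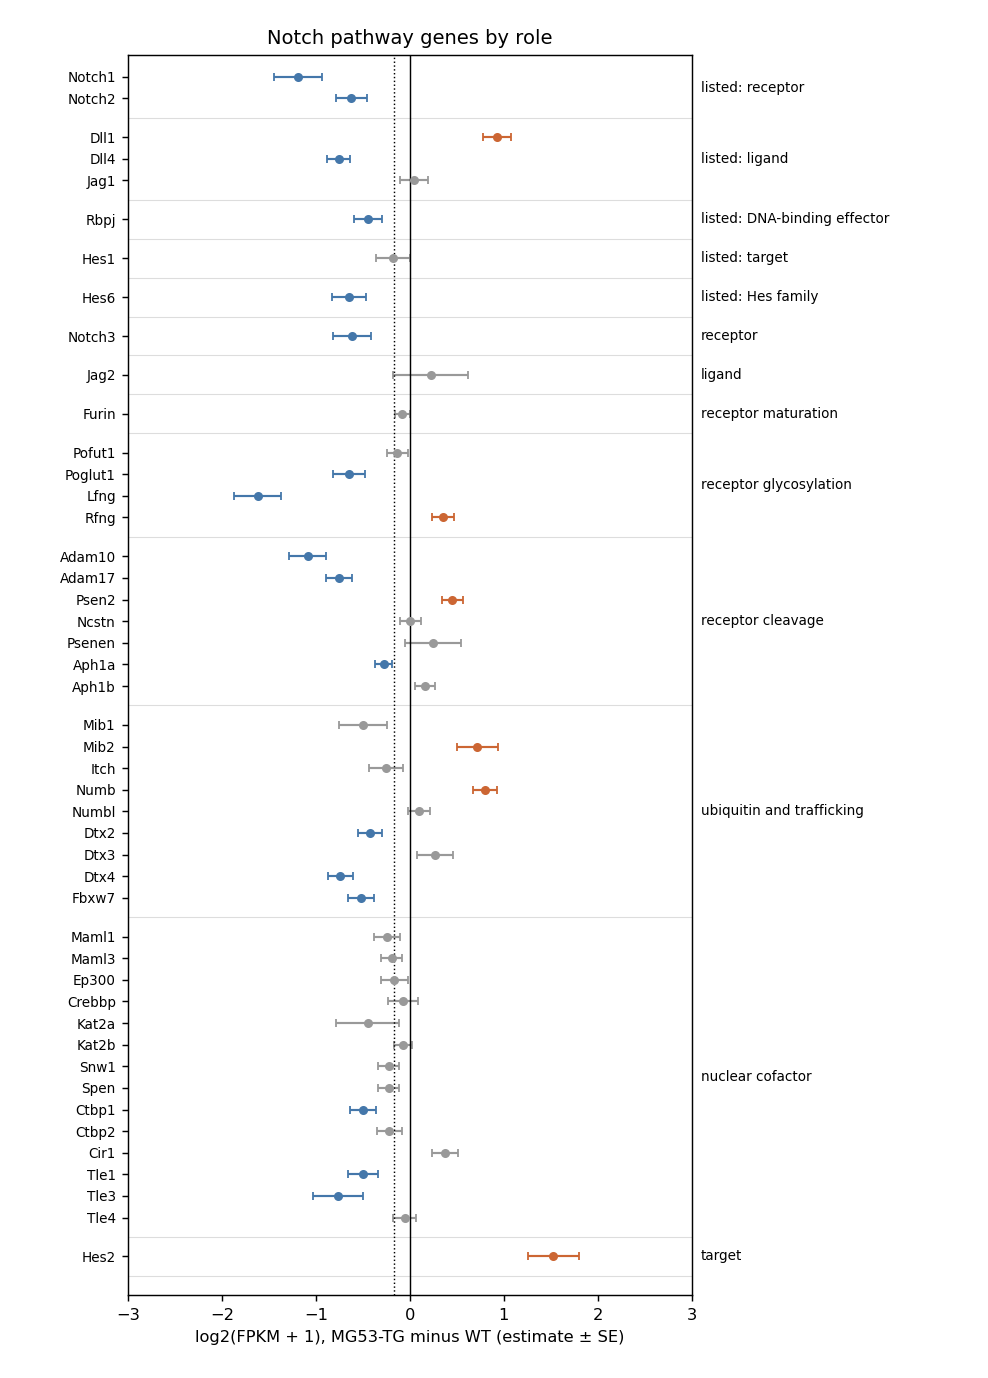
Difference in log2(FPKM + 1) between MG53-TG and WT (points, with SE bars) for the 8 genes and for further tested genes of the pathway, grouped by role, in orange where called higher, blue where called lower and grey where not called by limma. The dotted line is the median of all genes (-0.17), and both higher and lower calls occur among the glycosylation, cleavage and trafficking genes, with Lfng at -1.62 and Hes2 at 1.53 as the outermost points.

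Transcription factors of the secretory lineages were examined beside Dll1. Of 12 such genes 5 could be tested, of which 4 fell and none rose, where 29.2% of all genes were called lower and 15.9% higher. Their median difference was -1.02 beside -0.17 for all genes. Spdef, of goblet and Paneth cells, was at 2.49, 1.48, 1.99 and 1.71 FPKM in WT samples 1 to 4, and MG53-TG samples 1 to 4 had 0.189, 0.489, 0.845 and 0.821 FPKM (difference -0.89, SE 0.17, limma adjusted p = 0.00412). Sox9, which also marks stem and Paneth cells, was at 14.7 to 16.6 FPKM in WT, and MG53-TG samples 1 to 4 had 10.4, 10.4, 3.59 and 2.70 FPKM (difference -1.29, limma adjusted p = 0.0237). It lost its call without WT sample 1, 3 or 4 or MG53-TG sample 3, with limma adjusted p-values of up to 0.0604. Its difference was -0.56 without MG53-TG samples 3 and 4 and -2.03 without samples 1 and 2, and it passed both ways.

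Foxa1 and Foxa2 had no entry in MG53-TG samples 3 and 4, which the fit treated as missing, and Foxa1 also none in WT sample 1. In the samples with an entry Foxa1 was at 6.90 to 8.32 FPKM in WT and 2.55 to 3.74 FPKM in MG53-TG (difference -1.06, limma adjusted p = 0.00830), but with missing values set to 0 the difference was -1.31 and did not pass (limma adjusted p = 0.219). Foxa2 was at 1.36 to 2.85 FPKM in WT and 0.334 to 0.834 FPKM in MG53-TG (difference -1.02, limma adjusted p = 0.0155), and did not pass without MG53-TG sample 2 (limma adjusted p = 0.0783). Neurog3, the switch of the enteroendocrine lineage, was at 2.51 to 5.25 FPKM in WT and 2.27 to 3.69 FPKM in MG53-TG and did not pass (difference -0.22, SE 0.20, limma adjusted p = 0.402). Neurod1, Gfi1, Pax4 and Pou2f3 lay under the filter, and Atoh1 and Insm1 had no entry, so that the switch that lies directly under Hes1 was not analysed here.

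The products of the secretory lineages did not all follow these factors. The counts of called markers stand beside 29.2% of all genes called lower and 15.9% called higher. Of 6 tested goblet markers 4 were lower, with sums of 685 to 778 FPKM in WT and 183 to 506 FPKM in MG53-TG. Of 6 tested Paneth markers 5 were lower, with 1222 to 1637 FPKM against 262 to 460 FPKM. Of 7 tested enteroendocrine markers 4 were higher and none lower, with 216 to 237 FPKM against 344 to 490 FPKM. Tuft markers were at most 0.822 FPKM in sum. Of the mesenchymal markers Col1a2 and Col3a1 were at 0.739 to 2.07 FPKM in MG53-TG samples 2 to 4 and had no entry in the WT samples (taken as 0 in the fit) or in MG53-TG sample 1 (taken as missing), while Pdgfra, Pdgfrb and Acta2 had no entry. Of the immune markers Cd68 was lower, Ptprc and Cd3e each had an entry in only 1 sample, and Cd79a, Itgam and Adgre1 had no entry. The part of these cells in the levels of the Notch genes was not tested.

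The share of genes called higher depended on the scaling. With median-of-ratios scaling the median difference of all genes moved by 0.16 to -0.01, and the split of calls moved from 35.2% to 49.9% higher. Under that scaling Dll1 was at 1.09, Jag1 at 0.21, Hes1 at 0.01, Rbpj at -0.28, Hes6 at -0.47, Notch2 at -0.51, Dll4 at -0.64 and Notch1 at -1.05. The calls of Dll1, Hes6, Notch2, Dll4 and Notch1 held under it.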

How the data were processed

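Total RNA of 4 WT and 4 MG53-TG organoid samples was sequenced. The authors trimmed reads with Cutadapt 1.9.1 and mapped them with HISAT2 2.0.1 to the mouse genome (mm10 in the submitters' processing notes, which also name HTSeq 0.6.1), and deposited FPKM values per transcript event. The smallest FPKM was 1e-06, so whole reads could not be recovered and no interval that needs depth was computed. A gene took the rows that carry its identifier. A gene absent from a sample was set missing if the median of the entries present in its group was at least 0.5 FPKM, and to 0 otherwise. Events were also placed by GENCODE exon boundaries (91.9% of 48647, 4.99% of these to a gene other than the named), which gave Notch2 its value.

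Differences in log2(FPKM + 1) were fitted with limma 3.58.1 (R 4.3.3; lmFit, then eBayes with trend), keeping genes that averaged 0.5 FPKM or more. Start shares were fitted after an arcsine square root. For single genes an exact permutation test, two-sided, was run over the samples. On simulated data with 200 of 10286 genes changed, 72.4% of 1-unit and 96.1% of 2-unit changes were recovered, with 16 unchanged genes called. The simulation gave both groups the same spread and changed far fewer genes than were called here. These rates therefore do not carry over to the real fit. The members and lists were chosen with earlier results of these data known. Genes named were the 8, the called genes of the further list whose groups did not overlap (up to 16), all secretory factors, Trim72, Lgr5 and the 3 genes most like Dll1 and Hes1. Ctbp1 and Tle1 were named after their values were seen. Some genes counted in the lists are not reported here by name. Tables were made with Python 3.11.15 and pandas 2.3.3. The alternatives tried were another pseudocount (0.1), no filter or a filter of 2 FPKM, other scalings, a replicate block, start or end events alone, other assignments, and leaving out samples; leaving out a pair of MG53-TG samples was added after seeing the data.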

Additional observations from a re-analysis of the deposited data

Results flagged for a closer look

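In 71 groups of 4 samples, 1 sample lay far from the other three (by Dixon's criterion) in 5 cases, where chance gives about 1 in 20 groups, or 3.55. Hes1 was at 36.3 FPKM in WT sample 4, against 31.9 to 32.5 FPKM in the other WT samples. Lgr5 was at 54.0 FPKM in the same sample, against 40.5 to 42.3 FPKM. Numb was at 13.6 FPKM in WT sample 1, against 9.16 to 9.80 FPKM, which is still below every MG53-TG sample. Hes2 was at 0.0621 FPKM in WT sample 1 and Neurod1 at 0.0770 FPKM in WT sample 4, with no start entry in the other WT samples, taken as 0.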

How the results depend on the processing

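The directions of Notch1, Notch2, Dll1, Dll4, Rbpj and Hes6 held under each alternative that gave a value. The count of called members was 4 to 6 with 1 sample left out and 4 to 7 otherwise. Dll4 and Notch2 dropped out with a filter of 2 FPKM, and Notch1 and Dll1 had no tested value from end events. Hes1 turned to 0.00513 with median-of-ratios scaling and to 0.13 without MG53-TG samples 3 and 4. Jag1 turned to -0.0597 with start events alone, to -0.16 without MG53-TG samples 1 and 2, and ranged from -0.0355 to 0.12 with 1 sample left out. The cause was not tested. Called genes of the further list numbered 10 to 17 with 1 sample left out. Leading starts changed in 10 genes (250 at an unadjusted p under 0.05), in 35 with absent events as 0, in 0 with the replicate block and in 2 to 16 with 1 sample left out. Leading ends changed in 2 genes (60 unadjusted), in 8 with a sum of at least 5 FPKM, in 0 with absent events as 0 or with the replicate block, and in 0 to 6 with 1 sample left out. On the arcsine scale the Dll1 start share turned to 0.00908 with absent events as 0, and the Hes6 share ranged from -0.13 to 0.10 with 1 sample left out. Same-numbered samples did not deviate together (correlations -0.04 to 0.10), so the numbers were not taken as pairs. With the replicate block 4406 genes were called, and Rbpj lost its call, as did, outside the 8 genes, Foxa1 (-0.74, limma adjusted p = 0.167), Notch3, Dtx2, Rfng and Aph1a. Precision is limited by 4 samples a group, by the split within MG53-TG and by the unknown depth.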
